A study of Mus musculus with 7 samples.

Results

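The binding sites compared here are those of 1 protein, CTCF, in 2 mouse cell lines: the fibroblast line NIH3T3, called 3T3 below, and P19, an embryonal carcinoma line that came from a teratocarcinoma and can differentiate like early embryonic cells. The members are all peaks of the CTCF list of each line, 45653 in 3T3 and 32277 in P19, which make up 77930 of the 100560 peaks in the 4 lists of the series used here. Sites were mapped by chromatin immunoprecipitation and sequencing with the CTCF antibody N2.2. The 3T3 cells carried the stable constructs pBI-EGFP-FLAG-mCtcfl, which encodes tagged mouse Ctcfl (the germline paralogue of CTCF), and pTA-N. Per the labels, the P19 cells carried both constructs too, although their title calls them a control, and both lines were grown with doxycycline at 2 µg/ml, which was withdrawn for 48 h to induce the construct. CTCF in 3T3 cells without the constructs and the P19 input DNA were not analysed here, so the cell line and any difference in Ctcfl induction cannot be told apart.

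CTCF is a DNA-binding protein with an array of zinc fingers. It halts the cohesin complex at loop anchors, marks many boundaries of chromatin domains and blocks enhancers from promoters on the far side of its site. Many CTCF sites are known to be occupied in most cell types, while others are bound in some cell types and not in others, and DNA methylation at the recognition sequence is known to weaken binding at part of them.

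With 1 CTCF library analysed per line there is no replicate spread to set a difference against, and no p-value is printed. The depth of sequencing behind the peaks is unknown. Shares carry exact (Clopper-Pearson) 95% intervals, which cover counting error only, and neighbouring peaks are not independent. The authors' score of a peak is read as −10 times the log10 of the peak caller's p-value. It is used only as a percentile rank within its own list, from near 0 for the lowest to 100 for the highest score. The 3T3 peaks were narrow, with a median width of 342 bp and a middle range of 252 to 486 bp, against 636 bp (520 to 758 bp) in P19. In the 3T3 list 567 peaks scored 3100 or more, and 505 of them exactly 3100. These 505 were ranked as tied, below the peaks with higher scores. Whether 3100 is a fixed value set by the peak caller was not tested. The order of 3T3 peaks scoring 3100 or more is therefore uncertain. Positions are given in the mouse build mm9, counted from 1, and no gene annotation of that build was used.

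More of the P19 CTCF sites were also 3T3 sites than the reverse on the full lists, which differ in length. A peak is called common when it overlapped a CTCF peak of the other line by at least 1 bp, and line-only otherwise. In 3T3, 19032 peaks were common and 26621, or 58.3%, were line-only. In P19, 18453 peaks were common and 13824, or 42.8%, were line-only. With the 3T3 list limited to its 32277 highest scores, so that both lists had the same length, the common shares were nearly level, at 49.7% in 3T3 and 48.7% in P19.

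The common peaks lay on top of each other rather than edge to edge. Matching each peak to the partner with which it shared most bases gave 18426 pairs, and the centres of a pair were 63.5 bp apart at the median. In 17076 pairs, 92.7%, the centres were within 200 bp. The 3T3 peak lay wholly inside the wider P19 peak in 12394 pairs, 67.3%, and the P19 peak inside the 3T3 peak in 795, 4.31%. Only 613 P19 peaks held more than 1 3T3 peak, and 46 3T3 peaks touched more than 1 P19 peak.

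The higher a CTCF peak scored in its own line, the more often it was found in the other. Both lists were split by score into 10 groups of nearly equal size, with group 10 the highest. In 3T3 the common share was 20.8% in group 1 (95% interval 19.7 to 22.0), 31.4% in group 5 and 79.1% in group 10 (77.9 to 80.3). In P19 it was 30.0% in group 1 (28.4 to 31.6), 53.7% in group 5 and 87.6% in group 10 (86.4 to 88.7). The rise was nearly even in P19, while in 3T3 the shares of groups 1 and 2 were both 20.8% and groups 8 and 9 were close, at 60.1% and 63.5%. Peak width also rose with score, apart from a dip to a median of 236 bp in 3T3 group 2, and its part in the trend was not tested. Median widths were 272 bp and 568 bp in 3T3 groups 1 and 10, and 520 bp and 739 bp in P19.

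**Figure D1:**
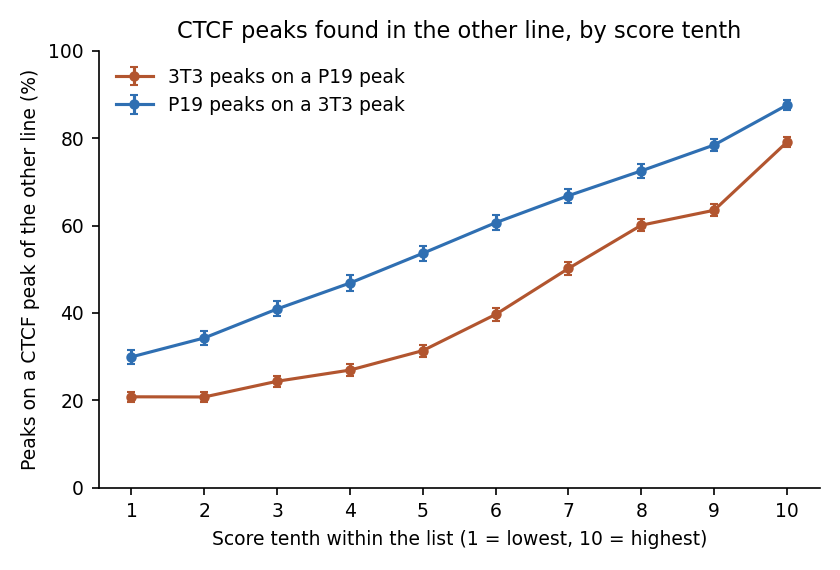
Share of CTCF peaks that overlap a CTCF peak of the other line (vertical axis, percent) by score group within the list, from 1 to 10 (horizontal axis), for 3T3 and P19. Points are shares and bars exact 95% intervals, with 1 library per line analysed; both lines rise from left to right, 3T3 from 20.8% to 79.1% and P19 from 30.0% to 87.6%.

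Line-only peaks sat low in both lists. The median percentile rank was 69.0 for common and 37.9 for line-only peaks in 3T3, with middle ranges of 43.7 to 86.1 and 17.6 to 60.3. In P19 the medians were 63.0 and 33.5, with middle ranges of 38.1 to 83.0 and 15.5 to 56.6. The classes overlap widely in each list. Width followed the same order, with medians of 403 bp for common and 293 bp for line-only peaks in 3T3, and 676 bp and 581 bp in P19. Split by width into 4 equal groups, the common share in P19 rose from 39.6% among the narrowest to 73.1% among the widest peaks. In 3T3 it was 18.3%, 37.2%, 61.2% and 50.1% from the narrowest to the widest group, so the widest 3T3 peaks were common less often than the group below them.

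Most line-only peaks were not near misses of a peak in the other line. The nearest CTCF peak of the other line lay up to 1 kb away for 9.21% of 3T3-only peaks (8.87 to 9.56) and 8.50% of P19-only peaks (8.04 to 8.98). It lay 10 to 100 kb away for 47.9% and 43.5%, and over 100 kb away for 4.78% (4.53 to 5.05) and 12.7% (12.1 to 13.2). Median distances were 10.97 kb in 3T3 and 12.9 kb in P19. P19-only peaks were thus more often far from any peak of the other line, although the 3T3 list, against which they were measured, is the longer one. Rank changed little with distance: the median rank was 38.03 in the nearest and 34.7 in the farthest group of 3T3-only peaks, and 35.1 and 31.7 in P19.

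At common sites the scores of the lines were only weakly related. Across the 18426 pairs Spearman's rho was 0.27, as a description, since pairs share their library and neighbouring sites are not independent. The ranks of a pair differed by 20.9 points at the median, and 5045 pairs, 27.4%, were within 10 points of each other. A gap of over 50 points was found in 2843 pairs, 15.4%, of which 1756 ranked higher in 3T3 and 1087 higher in P19. Ranks at common sites depend on how many weak peaks a list holds: with lists of equal length 2459 pairs, 15.7%, had such a gap, and the directions were nearly level, at 1269 and 1190. The median P19 rank rose from 48.3 at pairs in 3T3 score group 1 to 76.5 in group 10, where the middle range was still 50.5 to 91.3. Pairs were most frequent at the strong end of both lists: 985 pairs were in group 10 of both, while 99 were in group 10 of 3T3 and group 1 of P19, and 49 the reverse.

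**Figure D2:**
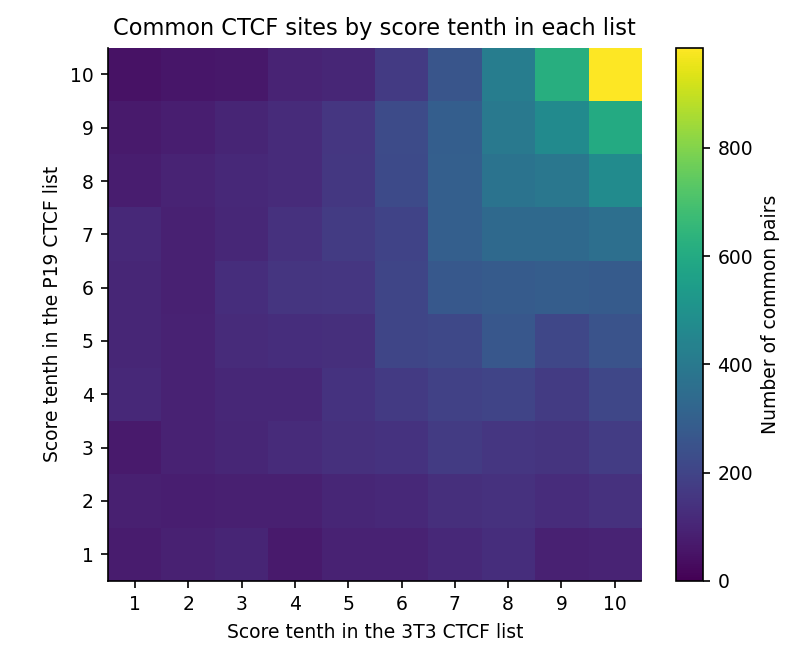
Number of common pairs (colour) by score group, from 1 to 10, in the 3T3 CTCF list (horizontal axis) and in the P19 CTCF list (vertical axis). The fullest cell, with 985 pairs, is the highest group of both lists at the upper right; no narrow diagonal is seen below it.

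The order of 3T3 peaks scoring 3100 or more is uncertain, and so are the choice and order of the sites named next. With peaks tied at 3100 ranked below higher scores, the site with the highest summed rank was on chromosome 5. It lay at 24035741 to 24036373 in 3T3 (score 3224, rank 99.99) and 24035736 to 24036380 in P19 (score 1122, rank 99.97). The centres of the 2 peaks were 1 bp apart, and CTCFL peaks of both lines lay there as well. Next by summed rank were chromosome 19, 44657008 to 44657667 in 3T3 (score 3177) with 44656855 to 44657619 in P19 (score 678), and chromosome X, 92110789 to 92111303 (score 3137) with 92110828 to 92111525 (score 648). The X site had no CTCFL peak in either line, whereas the chromosome 19 site had one in 3T3 only. Chromosome 1, 183818781 to 183819425, chromosome 8, 73153375 to 73154102, and chromosome 2, 119372623 to 119372979, were all tied at 3100 in 3T3. They scored 1522, 1265 and 1035 in P19 and carried CTCFL peaks in both lines. If 3100 were instead the top value in 3T3, the chromosome 1 site (P19 rank 99.997) would come before the chromosome 5 site.

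Other common sites stood at opposite ends of the lists. Chromosome 17, 47783405 to 47784028, scored 634 in P19 (rank 99.5) and 50.5 in 3T3 (rank 0.95), and chromosome 17, 4626100 to 4626938, scored 1338 (rank 99.99) and 51.5 (rank 2.8). Chromosome 6, 113711475 to 113712276, and chromosome 4, 140103087 to 140104031, were likewise above rank 97 in P19 and below rank 1 in 3T3. In the other direction, chromosome 2, 18597855 to 18598451, scored 3192 in 3T3 (rank 99.96) and 51.1 in P19 (rank 1.4), and chromosome X, 92906897 to 92907503, scored 3100 and 52.0. Chromosome 14, 26513285 to 26513949 (2312 in 3T3, 50.1 in P19), and chromosome 7, 28120940 to 28121422 (1666 and 50.2), complete this set. Of the 4 sites that ranked higher in 3T3, 3 had a 3T3 CTCFL peak, and none of the 4 that ranked higher in P19 had one. A P19 CTCFL peak lay at chromosome 17, 4626100 to 4626938, and at the chromosome 4 site, both higher in P19. Of the sites higher in 3T3, only that on chromosome 2 had one. Of all common 3T3 peaks in the highest score group, 54.7% had 3T3 CTCFL. In pairs of the lower 25% of 3T3 this share was 0.636% to 1.54%, depending on P19 rank. Whether the named sites depart from these shares was not tested. The named sites were picked for the size of their rank gap, so the gap itself is a description.

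CTCFL peaks were unevenly spread over such pairs. Among all pairs 14.1% had a 3T3 CTCFL peak and 16.5% a P19 one. Of the 759 pairs in the upper 25% of 3T3 and the lower 25% of P19, 39.3% had a 3T3 CTCFL peak (35.8 to 42.8). This share was 30.2% (28.8 to 31.8) in the 3690 pairs in the upper 25% of both. It was 28.5% (27.0 to 30.1) in the 3335 pairs of the upper 25% of 3T3 with P19 ranks in between. Of the 472 pairs in the lower 25% of 3T3 and the upper 25% of P19, 0.636% (0.131 to 1.85) had 3T3 CTCFL. P19 CTCFL lay at 14.2% (11.2 to 17.7) of them. The 3T3 CTCFL share was also low in the other pairs of the lower 25% of 3T3. It was 1.27% (0.512 to 2.60) in the lower 25% of both lists and 1.54% (0.944 to 2.37) with P19 ranks in between. The P19 CTCFL share was 33.2% (31.7 to 34.7) in pairs high in both lists and 17.0% (14.4 to 19.9) in pairs high in 3T3 alone.

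Line-only and common peaks also differed in how often CTCFL lay on them, and the order was not the same in 3T3 and P19. Of the 3T3 peaks, 26.1% of the line-only (25.6 to 26.7) and 14.2% of the common (13.7 to 14.7) had a CTCFL peak of the same line, where 21.2% of the whole list did. In P19 these shares were 6.60% (6.19 to 7.02) and 16.6% (16.04 to 17.1), where 12.3% of the whole list did. Among peaks of score group 10, 954 3T3 peaks were line-only, and 803 of these, 84.2% (81.7 to 86.4), had 3T3 CTCFL, against 54.7% (53.1 to 56.4) of the 3611 common ones. In P19 401 peaks of group 10 were line-only, with P19 CTCFL at 23.9% (19.8 to 28.4), against 35.1% (33.3 to 36.9) of the 2826 common ones. Within group 10 the line-only peaks were the wider in 3T3, with a median of 730 bp against 539 bp for common ones. In P19 these medians were 707 bp and 743 bp. The part of width in the CTCFL shares was not tested.

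CTCFL peaks of the other line were more frequent at common than at line-only peaks in both lists. Line-only peaks are by definition off the CTCF peaks of the other line, and part of these carry CTCFL of that line. The direction therefore follows in part from how the classes were defined. P19 CTCFL lay at 16.5% of common and 3.74% of line-only 3T3 CTCF peaks, where 9.06% of the whole list had it. 3T3 CTCFL lay at 14.4% of common and 0.463% (0.357 to 0.591) of line-only P19 CTCF peaks, 64 of 13824, where 8.41% of the whole list had it. Among P19-only peaks of group 10, 4 of 401 had a 3T3 CTCFL peak, 0.998% (0.272 to 2.53), whereas 233 of the 954 3T3-only peaks of group 10, 24.4%, had a P19 CTCFL peak. Few P19-only CTCF peaks had a 3T3 CTCFL peak, although the 3T3 CTCFL list is the longer one. How much of this follows from the definition of the class was not tested.

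**Figure D3:**
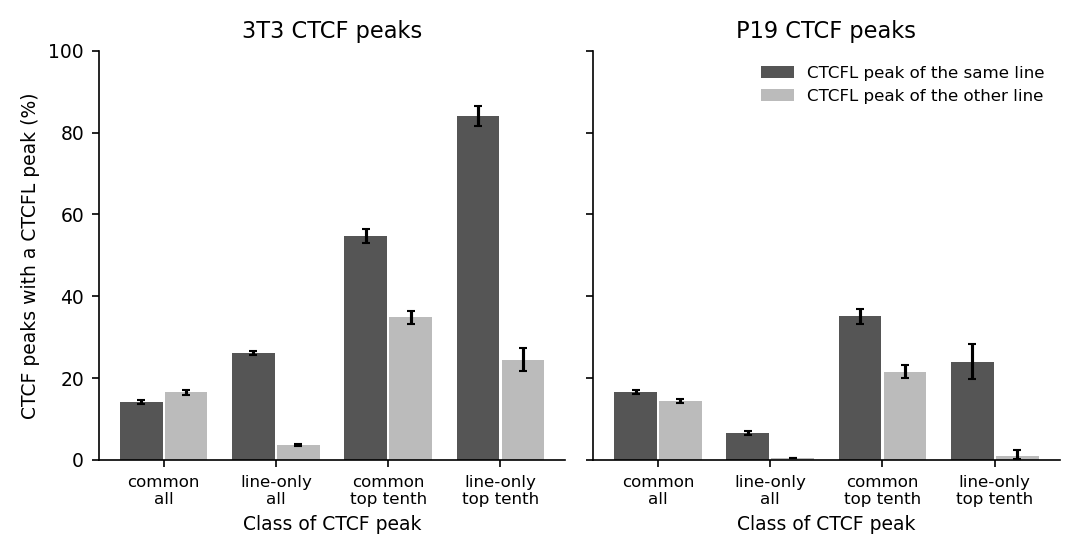
Share of CTCF peaks with a CTCFL peak (vertical axis, percent) by class of CTCF peak, for the 3T3 list (left) and the P19 list (right), with CTCFL of the same line in dark and of the other line in light bars. Bars are shares of peaks and lines exact 95% intervals; the tallest bar is 84.2% for strong 3T3-only peaks, and 3T3 CTCFL at P19-only peaks is 0.463%.

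The highest scoring line-only sites with no CTCF peak of the other line within 1000 bp were drawn from 24169 such 3T3 peaks and 12649 such P19 peaks. In 3T3 the highest scoring was chromosome 5, 120120098 to 120121102, with a score of 3209. It was followed by chromosome 9, 65044414 to 65044927, at 3203, chromosome 8, 105308713 to 105309476, at 3197, and chromosome 10, 93498440 to 93499283, at 3191. The remaining sites were chromosome 1, 120949705 to 120950656, at 3188 and chromosome 4, 117555344 to 117556263, at 3174. All 6 had a 3T3 CTCFL peak, and those on chromosomes 10, 1 and 4 had a P19 CTCFL peak although P19 had no CTCF peak there. The nearest P19 CTCF peak was between 3.45 and 28.3 kb away. These 6 sites all scored above 3100, where the order of 3T3 peaks is uncertain, so they are not necessarily the strongest.

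In P19 the leading site was chromosome 7, 150104944 to 150105733, with a score of 1123 and no CTCFL peak in either line. It stood apart from the next, chromosome 2, 25083585 to 25084824, which scored 696. Then came chromosome 16, 91935112 to 91935846, at 660, chromosome 5, 23866565 to 23867046, at 651 and 123827241 to 123828010, at 629, and chromosome 19, 10462894 to 10463872, at 620. Of the 6, 4 had a P19 CTCFL peak and none a 3T3 CTCFL peak, and the nearest 3T3 CTCF peak was 2.62 to 15.9 kb away.

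To place the classes along the chromosomes, all peaks that touched were merged into 58851 regions. Of these 45.2% were 3T3-only, 23.5% P19-only and 31.3% common, and these shares are the background for what follows. The longer 3T3 list makes 3T3-only regions the more frequent class by itself.

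The common class was nearly even over the chromosomes while the line-only classes were not. Common regions made up between 28.3% (chromosome X) and 35.3% (chromosome 18) of the regions of a chromosome. P19-only regions were most frequent on chromosome X, at 35.8% (33.0 to 38.6), and chromosome 16, at 35.6% (33.1 to 38.1), and ranged from 15.8% on chromosome 19 to 27.9% on chromosome 9 among the other 18. On the full lists chromosome 16 was the only one with more P19-only than 3T3-only regions, 535 against 495. On X the classes were level, 415 against 416. This balance depends on list length. With lists of equal length P19-only regions made up 48.9% on X and 46.9% on chromosome 16, where 34.1% of all regions were P19-only and 33.5% 3T3-only. The 3T3-only class was most frequent on chromosomes 19, 15 and 17, at 52.8% (50.6 to 54.9), 51.6% (49.8 to 53.5) and 51.4% (49.6 to 53.3). Chromosome 19 had 3.33 3T3-only regions for each P19-only region, where all chromosomes together had 1.93.

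**Figure D4:**
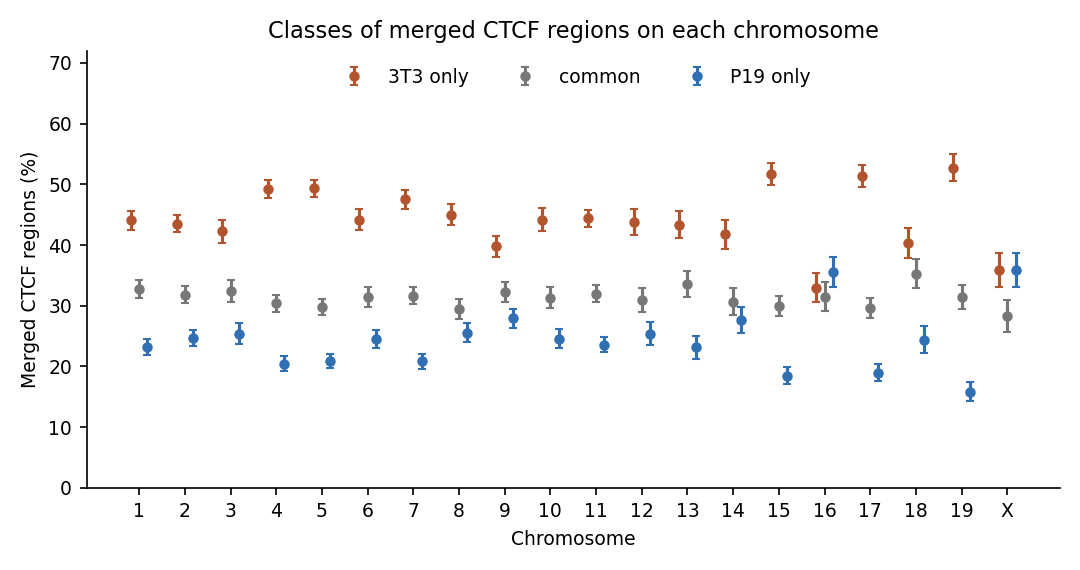
Share of merged CTCF regions of the full lists (vertical axis, percent) that are 3T3 only, common or P19 only on each chromosome (horizontal axis). Points are shares and bars exact 95% intervals; common regions stay between 28.3% and 35.3%, while the line-only classes meet on chromosomes 16 and X and lie farthest apart on chromosome 19.

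Chromosomes 16 and X differed from each other at their common sites. On X the median rank of common pairs was 46.0 in P19 and 57.8 in 3T3, both below the medians of all pairs, 63.0 and 69.7. On chromosome 16 they were 64.6 and 62.2. The highest medians were on chromosome 11 for both lists, at 71.5 in P19 and 74.7 in 3T3.

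Over windows pooled from all chromosomes, both line-only classes were more frequent where common regions were dense. The 3T3-only class rose the more steeply, so that P19-only regions outnumbered 3T3-only ones in the sparsest windows and not in the densest. Windows were not separated by chromosome, so a gradient within single chromosomes was not tested. The genome was cut into windows of 1 Mb, and 2461 windows held a region. The 348 windows with no common region held 370 3T3-only and 652 P19-only regions, a ratio of 0.567. The ratio was 0.919 with 1 to 3 common regions, 1.36 with 4 to 7, 1.86 with 8 to 15 and 2.93 with 16 to 31. It reached 4.22 in the 38 windows with 32 or more, which held 2397 3T3-only and 568 P19-only regions. Put per window, 3T3-only regions went from 1.06 to 63.1 and P19-only regions from 1.87 to 14.9 between the sparsest and the densest group. The gradient was also there with lists of equal length, from 0.321 to 2.42, and among peaks scoring 100 or more in each list, from 0.795 to 3.97. The densest group then held only 17 and 3 windows, and the group before it, with 16 to 31 common regions, had ratios of 1.55 and 2.39.

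**Figure D5:**
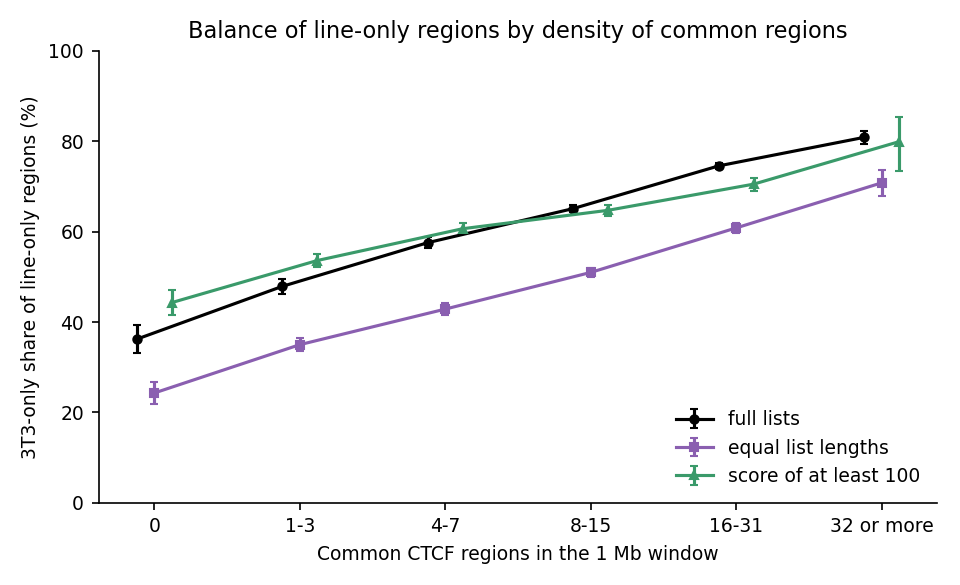
Share of 3T3-only regions among line-only CTCF regions (vertical axis, percent) by the number of common CTCF regions in the same 1 Mb window (horizontal axis), for the full lists, lists of equal length and peaks scoring at least 100. Points are shares with exact 95% intervals; the share on the full lists rises from 36.2% in windows without a common region to 80.8% in windows with 32 or more.

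The line-only peaks of dense and sparse windows had like ranks. The median rank of 3T3-only peaks was 33.2 in windows without a common region, 40.0 at its highest with 4 to 7 common regions, and 35.1 with 32 or more. That of P19-only peaks stayed between 30.9 and 35.0. Their CTCFL shares behaved differently: 19.2% to 27.9% of 3T3-only peaks had 3T3 CTCFL, with no steady trend, while P19 CTCFL at P19-only peaks went from 1.84% in the sparsest to 14.1% in the densest windows. Common pairs ranked higher in denser windows, from medians of 60.0 (3T3) and 55.0 (P19) with 1 to 3 common regions to 79.6 and 70.1 with 32 or more.

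The 3T3-only class was also concentrated in fewer windows than the P19-only class. The fullest 342 windows, 13.9% of them, held 50% of 3T3-only regions, where 570 windows, 23.2%, were needed for the P19-only and 428, 17.4%, for the common class. The leading windows were chromosome 10, 79000001 to 80000000, with 130 3T3-only, 16 P19-only and 51 common regions, and its neighbour 80000001 to 81000000, with 125, 15 and 58. Chromosome 17, 56000001 to 57000000, held 102, 9 and 29, and chromosome 19, 5000001 to 6000000, held 91, 10 and 41. The same 4 windows had the largest excess of 3T3-only over P19-only regions. The median rank of their 3T3-only peaks lay between 32.2 and 41.0, near the 37.9 of all 3T3-only peaks.

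P19-only regions reached at most 26 in a window. Chromosome 4, 138000001 to 139000000, held 26 P19-only, 24 3T3-only and 22 common regions, and chromosome 4, 141000001 to 142000000, held 26, 37 and 17. Chromosome 5, 129000001 to 130000000, had 25, 21 and 15, and chromosome 2, 168000001 to 169000000, had 24, 42 and 29. In the latter pair the P19-only peaks had median ranks of 51.5 and 50.02, against 33.5 for all P19-only peaks. P19-only regions outnumbered 3T3-only ones in 787 windows, 31.98%, and the reverse held in 1450. The excess was largest at chromosome 2, 170000001 to 171000000, with 24 P19-only against 7 3T3-only regions, followed by chromosome 12, 115000001 to 116000000 (12 against 1), chromosome 10, 18000001 to 19000000 (12 against 2), and chromosome 16, 6000001 to 7000000 (10 against 0).

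Line-only regions followed one another along the chromosome more often than their overall share. The next region was also 3T3-only after 51.0% of 3T3-only regions (50.4 to 51.6), where 45.2% of all regions were 3T3-only. After P19-only regions the next was P19-only in 30.8% of cases (30.0 to 31.5), where 23.5% of all were. For common regions the values were closer, 33.4% (32.7 to 34.1) and 31.3%. Runs of at least 5 regions of 1 class held 6071 3T3-only regions, 22.8% of that class, 970 P19-only regions, 7.02%, and 792 common regions, 4.30%. The frequent class makes longer runs by itself, so these percentages are not set against each other.

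The 3 longest 3T3-only runs were short stretches packed with sites. On chromosome 2, 167540934 to 167710716, 20 regions lay within 170 kb. Their scores ran from 50.5 to 709 with a median of 78.2, and 8 3T3 CTCFL peaks lay in the stretch. On chromosome X, 11241989 to 11737258, 19 regions scored 52.9 to 772 (median 99.3), and on chromosome 4, 141000451 to 141103070, 17 regions within 103 kb scored 50.3 to 440 (median 109). No P19 CTCF peak lay in these runs, and P19 CTCFL gave 1 peak, in the run on X. The chromosome 4 run lies in 1 of the windows with most P19-only regions named above, so both classes gathered in that window side by side.

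The longest P19-only runs were instead wide and thinly filled. On chromosome 6, 68052228 to 70418908, 15 regions in a row were P19-only, and no 3T3 CTCF peak lay anywhere from 67981075 to 70659241, a gap of 2678 kb. Scores in this run ran from 50.4 to 177 with a median of 98.6, against a list median of 117, and the strongest peak was at 68052228 to 68052949. On chromosome 14, 52963298 to 54450731, 13 regions were P19-only within a stretch of 1721 kb without 3T3 CTCF. They were weaker, from 52.2 to 115 with a median of 73.0, and the strongest was at 54423749 to 54424389. The 13 regions on chromosome 16, 72985459 to 75344071, scored 51.4 to 263 (median 111) within 2696 kb without 3T3 CTCF, and the strongest was at 73155603 to 73156334. No 3T3 CTCFL peak was found in any of these 3 runs, and 2 P19 CTCFL peaks were, both on chromosome 14.

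As background from general knowledge of the mouse genome, and not from an annotation of this build, 2 of these runs and 1 of the windows above lie in arrays of antigen receptor variable genes. The chromosome 6 run is in the immunoglobulin kappa light chain array (Igkv genes), the chromosome 14 run in the T cell receptor alpha array (Trav genes), and the chromosome 12 window in the immunoglobulin heavy chain array (Ighv genes). In lymphocytes these arrays are known to carry many CTCF sites that help to fold them for recombination. The RefSeq gene table of another build, GRCm38.p6, lists 162 Igkv genes on chromosome 6, 130 Trav genes on chromosome 14 and 183 Ighv genes on chromosome 12. Neither line is a lymphocyte, and peaks were not assigned to single genes. This link was made after the positions were seen.

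Position between the first and last region of a chromosome made little difference. Over 10 equal segments, 3T3-only regions made up between 43.1% and 47.1%, with the highest share in the segment farthest from the chromosome's start (46.0 to 48.1). P19-only regions ran from 25.6% in the first segment (24.3 to 27.0) to 21.9% in the last (21.1 to 22.8). Common regions stayed between 30.3% and 32.1%.

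The rank gap of common pairs showed no such grouping by place. Among 13203 neighbouring pairs within 100 kb, the rank differences between the lines of one pair and the next had a Spearman's rho of 0.04, given as a description over sites that share their libraries.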

How the data were processed

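Sites were measured by chromatin immunoprecipitation and sequencing, with libraries made from 10 ng of DNA per the labels' protocols. Per the submitters' processing notes, the tools were MACS 1.4, Bowtie, SAMtools and FastQC and the builds mm9 and hg19, without a role for each. Positions were read as mm9, the mouse build among these. For alignment, read filters, depth, the control library and any pooling, no source used here gives details. Each deposited list gives a position and the authors' score for every peak, with a lowest value of 50 in P19, and that score depends on depth and control, so it was not compared between lists.

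Overlaps, pairs, merged regions and 1 Mb windows (a region counted at its centre) were computed in Python 3.11.15 with numpy 2.4.6, pandas 2.3.3 and SciPy 1.17.1, and plotted with matplotlib 3.10.9. A pair is a reciprocal best overlap. On the lists, 6 of 6 overlap counts equalled those of bedtools 2.31.1, and 3 of 3 overlap shares planted in simulated data were recovered. Named sites followed a rule. It took the 6 highest scoring line-only peaks per line, the 6 highest summed ranks and the 4 largest rank gaps each way. It also took the 4 leading windows of each kind and the 3 longest runs per line. With these runs came the 3 stretches free of one list that held most peaks of the other, which were the same places. The members, rule and groupings were chosen with earlier results of these data known, and the grouping of windows by common regions was added after seeing the data. Results were recomputed with other criteria of overlap, limits on the score, lists of equal length, peaks of 400 bp, autosomes alone, close peaks merged and other window sizes. No sequence was read, because no genome of the build was used here.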

Additional observations from a re-analysis of the deposited data

Results flagged for a closer look

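Of 4 contrasts between common and line-only CTCF peaks computed in each list, 1 had opposite signs in the lines. The share of peaks with a CTCFL peak of the same line was −11.9 points in 3T3 and 9.98 points in P19, as common minus line-only. The other 3, which were CTCFL of the other line, median rank and median width, had the same sign in both. Whether the lines truly differ in this was not tested, as 1 CTCF library analysed per line allows no test.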

How the results depend on the processing

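No paired analysis was possible because 1 CTCF library per line was analysed here, and none could be left out. Of 55 values recomputed with settings listed at the outset, 32 lay inside the 95% interval of the reported value and 23 outside it. With settings chosen after seeing the data, 5 lay inside and 4 outside. The cause was not tested, although a score limit or a shorter list leaves out weak peaks by design. For the rank correlation the interval came from Fisher's z transformation, with pairs taken as independent. The recomputed values draw on the same peaks, so these counts describe shifts and are no test of agreement.

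The common share of 3T3 peaks was 40.9% with an overlap of at least 50% of the narrower peak, 37.6% with centres within 200 bp, 47.1% with gaps of up to 1000 bp, 43.6% with scores of at least 100, 49.7% with equal lengths, 40.6% with 400 bp peaks and 42.7% with close peaks merged. That of P19 peaks was 53.0% with centres within 200 bp, 60.8% with gaps, 54.5% with scores of at least 100, 48.7% with equal lengths and 56.4% with 400 bp peaks. The rank correlation was 0.21 with scores of at least 100, 0.24 with equal lengths and 0.25 without the 3T3 scores of 3100 and above. A 3T3-only region was followed by another in 45.7% of cases with scores of at least 100, 39.4% with equal lengths and 48.0% with close peaks merged, where the class made up 41.7%, 33.5% and 43.7% of regions. A P19-only region was followed by another in 32.4% with scores of at least 100 and 40.7% with equal lengths, where the class made up 26.6% and 34.1%. The 3T3-only share of chromosome 19 was 49.1% with scores of at least 100 and 39.4% with equal lengths, where chromosome 15 led at 39.5%. The P19-only share of X was 48.9% with equal lengths, and with scores of at least 100 chromosome 16 led at 39.0%. Of the pairs with a rank gap over 50 points, 61.8% ranked higher in 3T3 on the full lists and 51.6% with equal lengths. The ratio of line-only classes was 0.795 and 0.321 in windows without a common region, with scores of at least 100 and with equal lengths, and 2.42 in the densest windows with equal lengths.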

Other observations

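The strong line-only sites were spread over all chromosomes. In score group 10 of the 3T3 list, 20.9% of peaks were line-only, and by chromosome this ran from 15.97% on chromosome 9 (11.6 to 21.3) to 29.1% on chromosome 6 (23.3 to 35.6). In P19, 12.4% were line-only, from 7.34% on chromosome 15 (3.97 to 12.2) to 18.2% on chromosome 7 (12.7 to 24.9). On chromosome 16 the strong 3T3 peaks were line-only in 16 of 99 cases and the strong P19 peaks in 12 of 80. On X they were in 18 of 69 and 2 of 19 cases.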
